A study of Myzus persicae with 16 samples.

Results

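EBF-exposed aphids that had been reared on EBF-producing plants were compared with solvent-treated aphids reared on wild-type plants. This pair of conditions shared no array, so their difference was obtained from all 16 of the 16 arrays of the series, on which the 4 conditions of the study form a closed loop. The difference is given from a joint fit of the loop and by each of its 2 routes, through exposed non-habituated aphids and through solvent-treated habituated aphids. It addresses whether aphids raised in the presence of the alarm pheromone, and then exposed to it, had transcript levels like those of aphids that were never alarmed.

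EBF, (E)-beta-farnesene, is the main component of the alarm pheromone of many aphids. It is released from cornicle droplets when an aphid is attacked, is sensed by the antennae of its neighbours, and makes them stop feeding, walk away or drop from the plant. Aphids kept in constant EBF are known to lose this escape behaviour, which is called habituation.

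The animals were green peach aphids, Myzus persicae, of a red tobacco-adapted strain, taken in pools of 50 and used whole. They had been reared for at least 6 months with days of 16 h and nights of 8 h, on Arabidopsis thaliana of the wild-type line Col-0 or, for the habituated aphids, on 35S:EBFS plants, in which a constitutive promoter drives an EBF synthase. Pools then received 1 µg of EBF in hexane, or hexane alone, for 30 min. The conditions are named here by rearing plant and treatment: Col-0-EBF (solvent-treated, called not habituated in the labels), Col-0+EBF, EBFS-EBF and EBFS+EBF (exposed habituated aphids). Rearing plant and habituation cannot be told apart in this design, because every habituated aphid came from 35S:EBFS plants. RNA came from whole pooled animals, so fewer cells of a type and less RNA per cell cannot be told apart. Probes carry contig names without gene annotation in the sources used here, and therefore neither aphid tissues nor bacterial symbionts could be checked by marker genes.

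Each of the 4 array groups holds 4 arrays, with the dyes exchanged on 2 of them: Col-0+EBF against Col-0-EBF, Col-0+EBF against EBFS+EBF, EBFS+EBF against EBFS-EBF, and EBFS-EBF against Col-0-EBF. The first 2 groups give the route through Col-0+EBF and lie on slide 1, and the others give the route through EBFS-EBF and lie on slide 2. Route and slide therefore cannot be told apart. EBFS+EBF and Col-0-EBF each had 4 channels on each slide. Between 76.4% and 87.6% of the probes were well above background on a Col-0-EBF channel and between 68.9% and 89.0% on an EBFS+EBF channel, the lower values of EBFS+EBF being those of slide 1. The labels do not tie arrays to extracts, and p-values therefore reflect array-to-array variation that can be partly technical.

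All signed values are log2 differences, EBFS+EBF minus Col-0-EBF unless another pair is named, in the direction given by the dyes in the labels. For the arrays of Col-0+EBF against EBFS+EBF this direction opposes the study's own: the authors' deposited table names that column Col-0 + EBF over 35S:EBFS + EBF, yet its values correlated at -0.9997 with the ratio as labelled. The other 3 columns of the authors' deposited table followed the labels in the direction their names state. The values from the joint fit and from the route through Col-0+EBF depend on this choice, and their counts and medians are given with that group turned too.

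In the direction of the labels, none of the 12780 tested probes differed between exposed habituated and solvent-treated non-habituated aphids in the joint fit (0% called, limma's moderated test with Benjamini-Hochberg adjustment at 0.05, smallest adjusted p = 1.00). The unadjusted p was under 0.05 for 373 probes, against 639 expected by chance alone. That count depended on the processing. It was 692 with arrays scaled to 1 spread, and 1790 with array weights, where the smallest adjusted p from limma was 0.104. In the fit without weights or scaling, the median size of the difference was 0.083 on the log2 scale, and 249 probes differed by over 1.5-fold. In this direction 24 probes differed by over 2-fold, all of them lower in the exposed habituated aphids, and with the Col-0+EBF/EBFS+EBF arrays turned 534 did. The median 95% interval of a probe reached 0.31 log2 to either side of its value. The SD of the 12780 differences was 0.19, below the root mean square of their standard errors, 0.22.

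**Figure D1:**
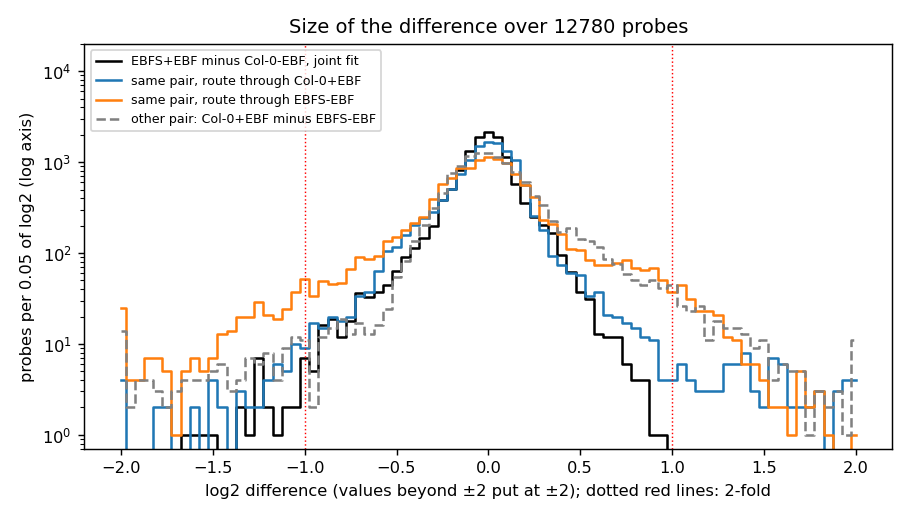
Histogram of the log2 differences of 12780 probes (x axis, log2; y axis, probes per bin on a log axis) for EBFS+EBF minus Col-0-EBF in the joint fit and by each route, and for the other pair of conditions without a direct array. The joint values (SD 0.19) were narrower than either route (SD 0.26 and 0.41), and no joint value exceeded 2-fold upwards.

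A p that misses the threshold does not show that levels were alike, so likeness was tested directly, as a pair of one-sided moderated tests against a 2-fold margin in either direction. In the joint fit 12005 probes (93.9% called alike) lay within the margin at an adjusted p under 0.05. With a margin of 1.5-fold this held for 9715 probes, or 76.0%. The route through Col-0+EBF alone showed 10868 probes within 2-fold (85%), and the route through EBFS-EBF 10677 (83.5%). By both routes separately, 9839 probes (77.0%) lay within 2-fold, and 1074 by neither. Of the 12005 probes alike in the joint fit, 2166 lacked this on at least 1 route.

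The other pair of conditions without a direct array, Col-0+EBF minus EBFS-EBF, has the same precision by design of the joint fit and gives a yardstick. Its conditions lie on different slides, Col-0+EBF on slide 1 and EBFS-EBF on slide 2. Both of its paths therefore cross slides, while each route of the main pair stays on 1 slide. How far this adds to its spread was not tested. There 11498 probes (90%) were alike within 2-fold, the SD of the differences was 0.35, and 2010 probes had an unadjusted p under 0.05. The adjusted test called 5 probes (0.0391%), 4 higher in Col-0+EBF and 1 lower. These calls were not stable: 0 probes were called without number 4 of either group on slide 1, without number 1 or 4 of EBFS+EBF/EBFS-EBF, or without number 2 or 3 of EBFS-EBF/Col-0-EBF, and 205 without number 4 of the latter. With a replicate block over all arrays or within slide, 0 probes were called (smallest limma adjusted p = 0.067 and 0.061). The difference between the counts of the 2 pairs was not tested. The response of non-habituated aphids, Col-0+EBF minus Col-0-EBF, which has direct arrays and so smaller standard errors, showed 11629 probes alike within 2-fold (91%) and 790 called (6.18%). That count fell to 5 without 1 array, number 3 of Col-0+EBF/Col-0-EBF, to 229 to 512 without 1 of the other 3 arrays of that group, to 344 without number 3 of Col-0+EBF/EBFS+EBF, to 384, 401 and 484 without number 1, 3 or 4 of EBFS+EBF/EBFS-EBF, and to 0 with the Col-0+EBF/EBFS+EBF arrays turned. Likeness within 2-fold of most probes was thus also measured in a comparison with 790 called probes.

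**Figure D2:**
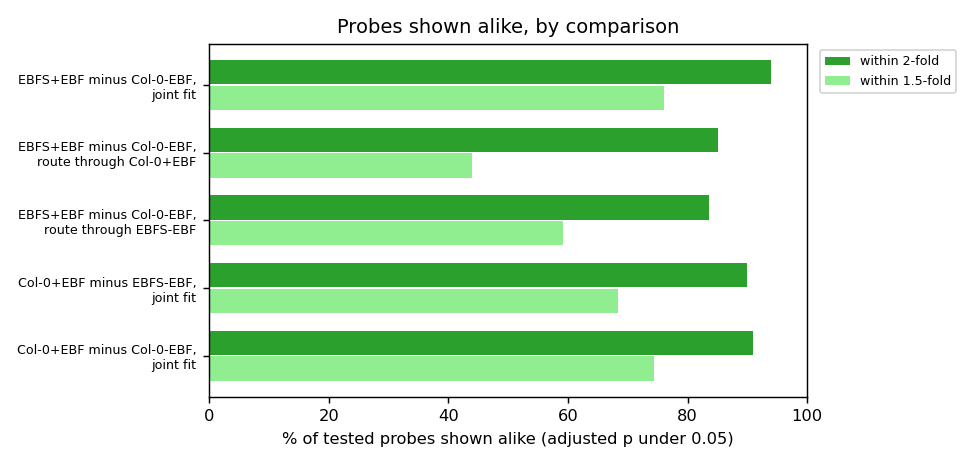
Share of the 12780 tested probes shown alike (x axis, percent) within 2-fold and within 1.5-fold, by comparison. The joint fit of EBFS+EBF minus Col-0-EBF reached 93.9% within 2-fold, above 85% and 83.5% by its routes, while 91% were alike between Col-0+EBF and Col-0-EBF.

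The 775 probes not shown alike within 2-fold were as a group measured less precisely. Their median standard error was 0.48, against 0.14 for the probes shown alike, and 359 of them had a standard error above 0.5. Among them 168 (21.7%) were saturated on at least 1 array, compared with 515 (4.29%) of the probes shown alike. No channel of slide 1 held saturated probes, so of the routes only the one through EBFS-EBF was touched by saturation. By signal, the share alike was 94.9% among the dimmest 3195 probes, and 94.4%, 96.3% and 90.1% in the next sets of 3195 up to the brightest. At the level of detection, 9828 of the 14628 probes were well above background on all 8 channels of both conditions. Not a single probe was well above background on all 8 channels of either condition and on none of the other. On at least 6 of 8 EBFS+EBF channels but at most 2 of 8 Col-0-EBF channels there were 2 probes, and the opposite pattern occurred at 0 probes.

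The probes nearest to a difference in the joint fit were small in size. Since none passed the test, the smallest p in each direction was taken among probes with the same sign in every same-numbered combination of arrays, 4 combinations per route. In such a combination the dye effect cancels. Of the 12780 tested probes this rule left 15 higher and 40 lower, so the shared sign of the named probes was set by the choice. Whether these counts exceed those of random signs was not tested. The probe for contig996 lay lower in the exposed habituated aphids by both routes. Through Col-0+EBF its 4 combinations were -0.61, -0.14, -0.50 and -0.44. Through EBFS-EBF they were -0.56, -0.19, -0.33 and -0.63. The ranges of the routes overlapped for this probe, while values below 0 throughout were a condition of the choice. The joint difference was -0.42 ± 0.095 (SE, 16 arrays; 95% interval -0.63 to -0.22; limma adjusted p = 1.00). A second probe for contig996 gave -0.40 ± 0.15, and both were well measured, with the first above background on all 8 channels of each condition.

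For contig309 the combinations through Col-0+EBF were -0.19, -0.23, -0.93 and -0.34, and those through EBFS-EBF -0.63, -0.95, -0.37 and -1.21. The joint value was -0.61 ± 0.13 (SE, 16 arrays), and its adjusted p from limma was also 1.00. Again every combination was below 0, as the choice required, and the ranges of the routes overlapped. In the upward direction contig5559 had 0.12, 0.0061, 0.18 and 0.28 through Col-0+EBF. Through EBFS-EBF it had 0.56, 0.15, 0.74 and 1.05, so its joint value of 0.39 ± 0.11 came more from slide 2. Its signal was well above background on 2 of 8 Col-0-EBF, 0 of 8 Col-0+EBF, 4 of 8 EBFS+EBF and 7 of 8 EBFS-EBF channels. It was thus close to the detection limit in the pair compared. The second upward probe, for contig586, had a joint value of 0.30 ± 0.084 and was above background on 1, 0, 4 and 7 of 8 channels in the same order. Another probe for contig586 gave 0.32 ± 0.24, with -0.00073 by one route and 0.63 by the other.

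**Figure D3:**
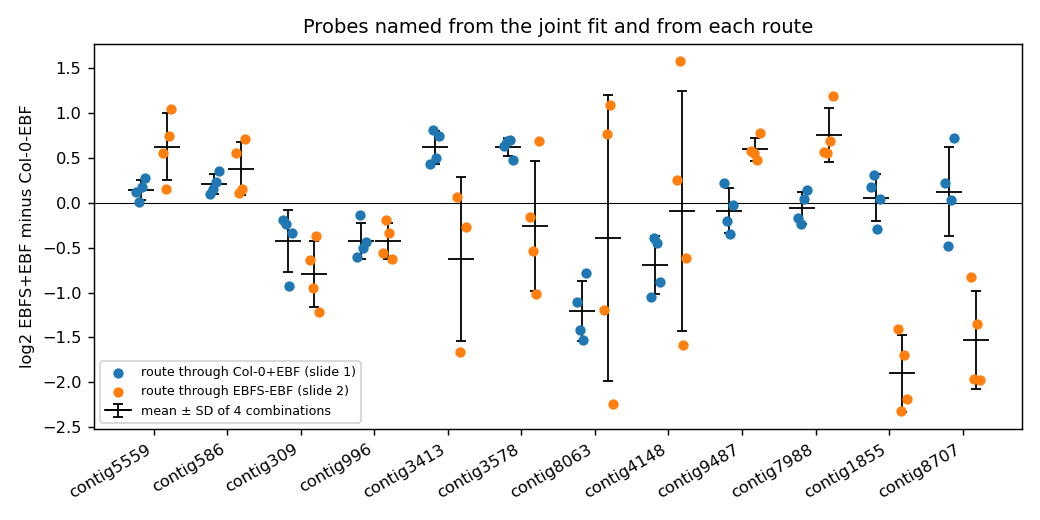
Log2 EBFS+EBF minus Col-0-EBF (y axis) in each same-numbered combination of arrays for 12 probes, 4 each named from the joint fit, the route through Col-0+EBF and the route through EBFS-EBF, with mean ± SD. For contig3413 the route through EBFS-EBF has 3 combinations. The first 4 probes kept their sign by both routes, and the others by the route that named them, because probes were chosen for this. The probes of contig1855 and contig8707 had combinations on either side of 0 through Col-0+EBF and below -0.8 through EBFS-EBF.

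Each route taken alone also called 0 probes (0% called on either route), but their values differed from each other. The route through Col-0+EBF had 267 probes at an unadjusted p under 0.05 and a smallest adjusted p of 1.00. The route through EBFS-EBF had 1874, a smallest adjusted p of 0.244, and 518 probes over 2-fold. Without number 1 of EBFS-EBF/Col-0-EBF it called 156 probes. Among probes with the same sign in every combination of that route, the second probe of contig1855 had the smallest p. Its combinations through EBFS-EBF were -1.40, -2.32, -1.69 and -2.19, compared with 0.17, 0.31, -0.29 and 0.047 through Col-0+EBF, and the ranges did not overlap. The difference of this probe was -1.90 ± 0.21 (SE, 8 arrays; limma adjusted p = 0.244) by the former route and 0.060 ± 0.14 by the latter. The first probe for contig1855 had -1.84 and 0.037, so both probes of this contig showed the same split. For contig8707 the values were -1.53 ± 0.20 and 0.13 ± 0.24, the latter from combinations of 0.23, -0.48, 0.034 and 0.73. Upwards, contig7988 had 0.57, 0.56, 0.69 and 1.20 through EBFS-EBF and -0.17, -0.24, 0.047 and 0.15 through Col-0+EBF. The probe for contig9487 had 0.60 ± 0.095 through EBFS-EBF and -0.086 ± 0.22 through Col-0+EBF. Outside EBFS-EBF both upward probes were near the detection limit. The signal of contig7988 was well above background on 2 of 8 Col-0-EBF, 0 of 8 Col-0+EBF, 4 of 8 EBFS+EBF and 8 of 8 EBFS-EBF channels. For contig9487 these counts were 4, 2, 4 and 8. All Col-0+EBF channels lay on slide 1 and all EBFS-EBF channels on slide 2. On EBFS+EBF channels more probes were detected on slide 2, 85.6% to 89.0% against 68.9% to 75.9% on slide 1. On Col-0-EBF channels the ranges overlapped, with 76.5% to 87.6% on slide 2 and 76.4% to 81.4% on slide 1.

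In the opposite case, with probes chosen for the same sign through Col-0+EBF, contig8063 had -1.10, -1.42, -1.52 and -0.78 there. Through EBFS-EBF the same probe scattered from -2.24 to 1.09. Its difference was -1.21 ± 0.22 (SE, 8 arrays; limma adjusted p = 1.00) by the former route. The values of contig4148 were -0.69 ± 0.16 through Col-0+EBF and -0.090 ± 0.47 through EBFS-EBF. Upwards through Col-0+EBF, contig3578 had 0.64, 0.69, 0.70 and 0.48, and contig3413 had 0.43, 0.81, 0.50 and 0.75. On the other route these probes gave -0.26 ± 0.25 and -0.61 ± 0.32, the latter with 1 combination left out because of an outlier spot.

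Across the 12780 probes the routes ran against each other rather than together, with a Pearson correlation of -0.40 and a Spearman correlation of -0.34 between them. These describe probes, which are not independent replicates. The sign was the same for 38.1% of the probes. Of the 287 probes past 1.5-fold by both routes, 54 had the same sign and 233 opposite signs. The joint value lies between the routes, so opposite values offset each other in it. Combinations of the same route were only weakly alike: their correlations had a median of 0.0059 through Col-0+EBF (range -0.45 to 0.43) and 0.070 through EBFS-EBF (range -0.33 to 0.62), with 6 pairs each. Between combinations of different routes the median was -0.16 for the same number and -0.095 for different numbers. The negative correlation rested largely on the arrays numbered 2. Without those arrays it was 0.026, and without number 1, 3 or 4 it was -0.46, -0.44 or -0.52. The arrays numbered 2 also had the widest combinations, with SDs over probes of 0.62 and 0.90, against 0.43 to 0.55 and 0.50 to 0.71 for the other numbers. The part of this spread in the correlation was not tested otherwise.

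**Figure D4:**
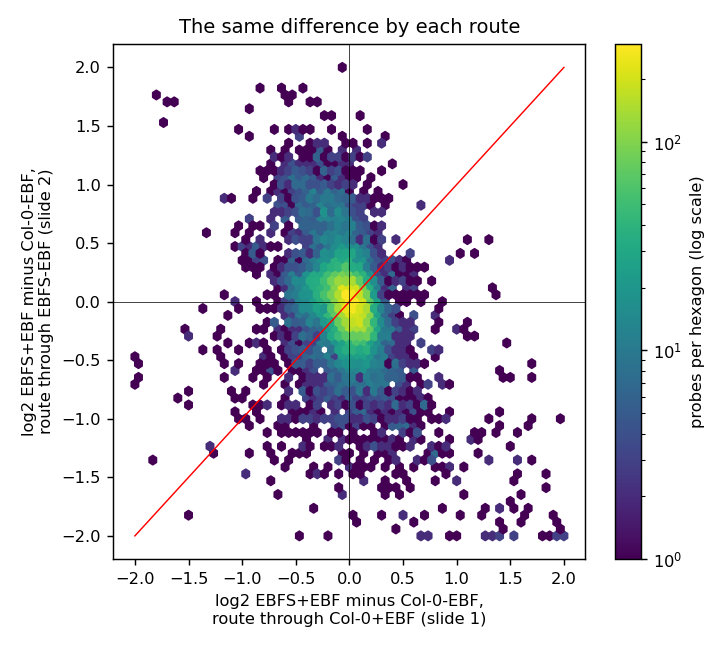
Log2 EBFS+EBF minus Col-0-EBF for 12780 probes by the route through Col-0+EBF (x axis, slide 1) and by the route through EBFS-EBF (y axis, slide 2), as probes per hexagon on a log colour scale, with values beyond 2 drawn at 2. Points would lie along the red line if the routes gave the same value, but the cloud slopes the other way (r = -0.40).

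A test of the difference between the routes asks whether the loop closes for each probe. It called 0 probes (0% called), with 1357 at an unadjusted p under 0.05 and a smallest adjusted p of 0.236. The gaps with the smallest p and a consistent sign were for contig1855 (its first probe, 1.87, route through Col-0+EBF minus route through EBFS-EBF), contig4415 (1.22), contig1136 (-2.47) and contig2452 (-0.74), each with an adjusted p of 0.236 from limma. For contig1136 the combinations were -0.51, -1.61, -0.90 and -1.02 through Col-0+EBF and 0.40, 1.53, 0.90 and 3.03 through EBFS-EBF. The 2 ranges stood on either side of 0, and the joint value of 0.23 ± 0.40 averaged them. A second probe for this contig gave -0.93 and 1.43. The contig was among those raised by EBF in non-habituated aphids, at 1.37 ± 0.35 (16 arrays, limma adjusted p = 0.0375).

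The transcripts that EBF moved in non-habituated aphids bear most closely on the question. Of the 790 probes called in Col-0+EBF minus Col-0-EBF, 451 rose and 339 fell. Both comparisons share the Col-0-EBF aphids. The 790 probes were also called in the joint fit, which uses the arrays of both routes. The joint and route medians of these probes therefore reuse arrays that took part in the choice. For these reasons the values of the comparisons are given side by side without a test. The 451 probes that rose had a median of 0.83 in that response and of 0.20 in EBFS+EBF minus Col-0-EBF (quartiles 0.10 and 0.30), against -0.0091 over all tested probes. By route, however, their median was -0.18 through Col-0+EBF and 0.62 through EBFS-EBF. Between EBFS+EBF and Col-0-EBF, 415 of the 451 (92.0%) were alike within 2-fold in the joint fit, close to the 93.9% of all probes. The 339 probes that fell had a median of -0.42 in the response and -0.024 in EBFS+EBF minus Col-0-EBF, with -0.037 and 0.0060 by the routes. With the Col-0+EBF/EBFS+EBF arrays turned, the latter joint median was -0.42, the size of the response itself. Of these 339 probes, 299 (88.2%) were alike within 2-fold. The 2-fold margin is wider than the median response of either set, 0.83 and -0.42. For most of these probes likeness within it therefore cannot tell the unexposed from the alarmed level.

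Since the route through EBFS-EBF uses none of the arrays of slide 1, probes chosen on slide 1 can be read on it without reuse of an array. Both slides still carry RNA of Col-0-EBF aphids, and extracts may be shared between them. The choice and the reading may therefore not be independent. The 100 probes highest in Col-0+EBF minus Col-0-EBF by the moderated statistic on slide 1 had a median response of 0.72 there. Through EBFS-EBF their median in EBFS+EBF minus Col-0-EBF was 0.78 (quartiles 0.44 and 1.04), against -0.015 over all probes. Where only probes above background on all channels were used it was 0.29, and with the choice made without number 3 of Col-0+EBF/Col-0-EBF it was 0.27. The medians of the 4 combinations were -0.0042, 0.81, 0.31 and 1.88, with a mean of 0.75 ± 0.83 (SD, n = 4). They ranged from no shift in number 1 to a wide one in number 4, and the SD exceeded the mean. Both steps of the route contributed: the medians on the single arrays ran from 0.078 to 0.82 for EBFS+EBF over EBFS-EBF and from -0.082 to 1.00 for EBFS-EBF over Col-0-EBF. Through Col-0+EBF, which shares the arrays used for the choice, the same 100 probes had medians of -0.018, -0.29, -0.10 and -0.15. Their median on this route was -0.15, but 1.58 with the Col-0+EBF/EBFS+EBF arrays turned, so its direction rests on the labels of that group. On slide 2 the 100 probes lay above the unexposed level in 3 of 4 combinations. Without all arrays numbered 3, the 100 probes chosen had a median of 0.064 through EBFS-EBF.

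**Figure D5:**
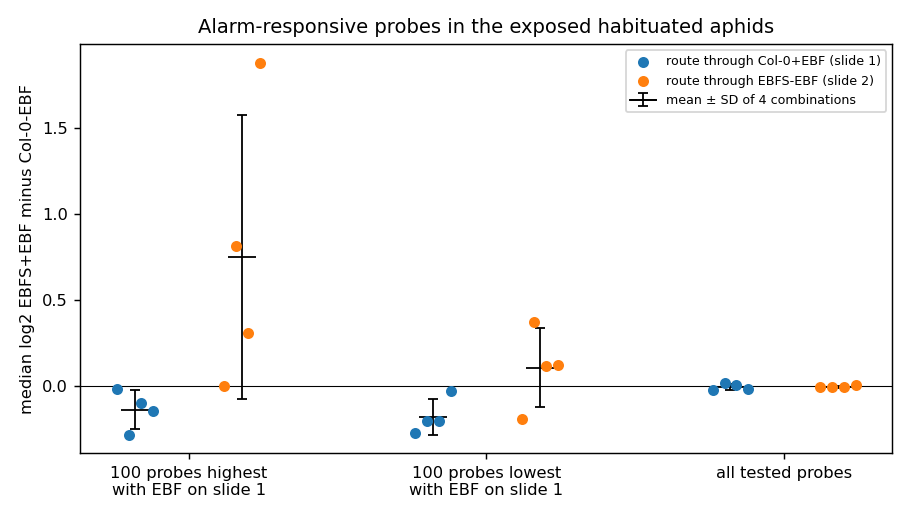
Median log2 EBFS+EBF minus Col-0-EBF (y axis) of the 100 probes highest and the 100 lowest with EBF in non-habituated aphids on slide 1, and of all 12780 probes, with 1 point for each same-numbered combination of arrays and the mean ± SD of 4. The highest set lies at -0.29 to -0.018 on slide 1 and at -0.0042 to 1.88 on slide 2.

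The 100 probes lowest with EBF on slide 1 had a median response of -0.55. Through EBFS-EBF their medians in EBFS+EBF minus Col-0-EBF were -0.19, 0.37, 0.12 and 0.12, with a mean of 0.10 ± 0.23 (SD, n = 4), so the shift was within the spread between combinations. Through Col-0+EBF they were -0.28, -0.21, -0.21 and -0.031.

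Single alarm-responsive probes varied as well. Among called probes with the same sign on every direct array, contig5598 had the largest rise with EBF in non-habituated aphids, 2.18 ± 0.27 (SE, 16 arrays; limma adjusted p = 0.0121), and was also called in Col-0+EBF minus EBFS-EBF, at 2.33 ± 0.31 (limma adjusted p = 0.0293). The latter call was lost in 14 of 38 alternatives. In EBFS+EBF minus Col-0-EBF it was 0.26 ± 0.31, with a 95% interval of -0.40 to 0.92. Its combinations were 0.55, -0.87, 0.32 and 0.35 through Col-0+EBF and 1.34, -0.98, 0.98 and 0.42 through EBFS-EBF, with number 2 lowest on both routes. The probe for contig8341 rose by 1.95 ± 0.41 with EBF in non-habituated aphids (limma adjusted p = 0.022). In EBFS+EBF minus Col-0-EBF it was -0.031, -1.29, -0.34 and -0.58 through Col-0+EBF, but -0.53, 2.93, 0.74 and 3.65 through EBFS-EBF. Its combinations on slide 2 spanned both the unexposed and the alarmed level. The signal of contig8341 was well above background on 5 of 8 EBFS+EBF channels, and on all 8 of each other condition.

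The probe for contig6403 was the 1 probe called lower in Col-0+EBF than in EBFS-EBF, at -0.42 ± 0.063 (SE, 16 arrays; limma adjusted p = 0.0293), and fell with EBF in non-habituated aphids, at -0.31 ± 0.054 (adjusted p = 0.0165). Between EBFS+EBF and Col-0-EBF it was 0.037 ± 0.063, and its 8 combinations ran from -0.17 to 0.25. The 95% interval of that value was -0.10 to 0.17. The call of contig6403 between Col-0+EBF and EBFS-EBF was lost in 23 of 38 alternatives. The deepest falls with EBF, contig3160 (-2.95 ± 0.76) and contig2127 (-2.82 ± 0.74), were too variable to place. Without the arrays numbered 1 they were -1.58 and -1.47, and their calls were lost in 19 and 20 of 38 alternatives. The combinations of contig3160 ran from -3.23 to 3.06 through EBFS-EBF, and its joint value of -0.46 ± 0.88 had an interval of -2.35 to 1.42. For contig2127 the joint value was -0.94 ± 0.85.

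With the arrays of Col-0+EBF against EBFS+EBF turned to the direction that the name of the authors' column states, the picture changed. The joint fit then called 823 probes between exposed habituated and solvent-treated non-habituated aphids, 689 higher and 134 lower, and the pair Col-0+EBF minus EBFS-EBF called 0 (207 at an unadjusted p under 0.05). The route through Col-0+EBF called 878 probes, the routes correlated at 0.15, and the test of the difference between routes called 295 probes in place of 0. The 451 probes raised by EBF in the direction of the labels had a joint median of 1.02 and of 1.403 through Col-0+EBF, the 339 that fell had -0.42 and -0.85, and 11181 of 12780 probes were alike within 2-fold. The joint response of non-habituated aphids then called 0 probes. With the arrays of slide 2 turned instead, the joint fit called 0 probes, the routes correlated at 0.40, and the median of the 451 probes was -0.42. The count of 0 therefore rests on the dyes in the labels of 1 array group. The count of probes alike within 2-fold was at least 11181 in every direction tried, but not necessarily of the same probes. Such a count does not by itself show an unalarmed state. In the direction of the labels, 91% were also alike between Col-0+EBF and Col-0-EBF, with 790 called.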

How the data were processed

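Fluorescence intensity of each spot was read from the scanner files, written per the file headers by Agilent's Feature Extraction 10.5.1.1; median signals and median local backgrounds were deposited on a linear scale. The authors' deposited table and series matrix hold log2 ratios, for which the submitters' processing notes name limma without a version. Background was corrected here by normexp with an offset of 50, and each array was loess-normalized (limma 3.58.1, R 4.3.3). Control spots had weight 0, and 175 outlier probe spots were left out. A condition detected a probe if at least 4 of its 8 channels were well above background, and probes that any condition detected were tested (12780 of 14628). The joint model of log2 ratios on 16 arrays had a coefficient for 3 conditions and 1 for dye, leaving 12 residual degrees of freedom; each route was fitted on its 8 arrays with 5. Adjusted p-values are Benjamini-Hochberg over 12780 probes. Scripts were tested on simulated arrays.

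Probes and lists were chosen with earlier results of these data known. Up to 2 probes per direction and comparison are named: the largest change among called probes with the same sign in every combination (on the direct arrays for the response of non-habituated aphids), or the smallest p where none was called. The 10489 identifiers matched 0 entries of the RefSeq table of assembly MPER_G0061.0, so gene lists could not be used. Same-numbered arrays deviated together on slide 1 where they share Col-0+EBF (correlations 0.34 to 0.54), and in either direction elsewhere (-0.53 to 0.46). The labels give no pairing, so the fits take arrays as independent, which may not hold on slide 1. With a replicate block within slide, the route through Col-0+EBF had 592 probes at an unadjusted p under 0.05, against 267. It then had 11616 alike within 2-fold, against 10868. The number of arrays limits the precision. Alternatives varied background, normalization, filters, dye terms, array weights, blocks, directions and left-out arrays.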

Additional observations from a re-analysis of the deposited data

Results flagged for a closer look

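Among 43 groups of 4 combinations examined for the named probes, 2 held a value far from the other 3, about as many as the 1 in 20 that chance gives. For contig5598 the combination numbered 2 through Col-0+EBF was -0.87, while the other 3 lay between 0.32 and 0.55. The other was a probe named by an expressed sequence tag, called higher in Col-0+EBF than in EBFS-EBF (1.105 ± 0.16, SE, 16 arrays; limma adjusted p = 0.0293). In EBFS+EBF minus Col-0-EBF through Col-0+EBF its combination numbered 1 was 0.43, and the others lay between -0.59 and -0.47. Through EBFS-EBF its combinations were -0.41, -0.12, 0.51 and -0.44.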

How the results depend on the processing

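The joint comparison called 0 probes under all alternatives except the turned Col-0+EBF/EBFS+EBF arrays (823). With array weights it had 1790 probes at an unadjusted p under 0.05, against 373, and a smallest adjusted p from limma of 0.104. The authors' series matrix was tried only with its signs set to the labels. Likeness within 2-fold kept its count within 1.5 times throughout, a bound that a count near the number tested can hardly leave. It held for 8411 of 8946 with probes averaged per identifier, and 8907 of 9420 with only probes above background on all channels. With those 4 arrays turned, the route through Col-0+EBF called 878 probes, the difference between routes 295, the other pair 0 and the response to EBF of Col-0-reared aphids 0, with routes correlated at 0.15. The values of contig3413, contig3578, contig8063 and contig4148 on that route became -0.29, -0.67, 1.66 and 0.48, and the gap of contig1136 became 1.04. With slide 2 turned, which reverses its route by construction, the other pair called 867 probes, the routes correlated at 0.40 and the 100 highest probes had a median of -0.78. The joint values of contig5559, contig586, contig309 and contig996 became -0.24, -0.086, 0.18 and 0.0037, the route values of contig9487, contig7988, contig1855 and contig8707 became -0.60, -0.75, 1.90 and 1.53, and the gaps of contig1855, contig4415, contig2452 and contig1136 became -1.80, -1.37, 0.38 and 0.46. The 5 probes of the other pair were 3 with processed signals, 2 with median centring, 0 with arrays scaled to 1 spread, 0 without a dye effect, 8 with a dye effect per slide, 97 with array weights and 87 in a separate-channel fit added after seeing the data. Scaling gave 2 probes for the difference between routes, and array weights 1 on the route through EBFS-EBF. The 790 responding probes were 258 with scaling, 321 with the strict filter and 1246 with array weights. A replicate block over all arrays or within slide left 0 of the 5 probes (smallest adjusted p = 0.067 and 0.061), and within slide 398 responding probes. Leaving out 1 array, or the 4 of a number, gave 0 to 156 probes on the route through EBFS-EBF (156 without EBFS-EBF/Col-0-EBF number 1), 0 to 205 for the other pair (205 without EBFS-EBF/Col-0-EBF number 4) and 1 to 879 for the response (1 without all arrays numbered 3, 5 without that of Col-0+EBF/Col-0-EBF alone). The correlation between routes then ran from -0.52 to 0.026, and the median of the 100 lowest probes from -0.18 to 0.27. The cause was not tested.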
